A study of Mus musculus with 4 samples.

Results

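The genes described here are 48 genes of the mitotic spindle and of the G2 and M phases of the cell cycle, taken by name from a list of genes with known roles in mitosis, out of 22011 genes in the deposited tables. All 48 were found. They were chosen with earlier results of these data known. RNA of mouse fetal liver cells was sequenced in 2 samples labelled wild type (WT) and 2 samples labelled hnRNP L -/- (KO). HnRNP L binds RNA and takes part in splicing. The protocol names C57BL/6 mice, LckCre transgenic mice, a tdTomato and EGFP reporter strain at the ROSA26 locus and CD45.1 mice as the stock of the study, and does not say which of these alleles the fetal livers carried. The labels do not state the age of the embryos, the kind of deletion or whether livers were pooled. Nor do they say that the 2 samples of a group came from separate animals or litters, so each p-value reflects only the spread among 4 libraries. The KO libraries differed in sex, as given below, and were thus not repeats of the same RNA. The spread of the WT libraries may be technical.

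Cells that divide build up a set of proteins in G2 and use them within a short time in mitosis. Cyclin B with the kinase Cdk1 starts mitosis, condensins and topoisomerase II compact the chromosomes, kinesins and their partners build the spindle, kinetochores attach chromosomes to it, the spindle checkpoint delays anaphase until all are attached, and the anaphase-promoting complex then marks cyclin B and securin for destruction. Most of these genes are transcribed together late in the cell cycle, and the fetal liver, where red cell precursors multiply before birth, is rich in them.

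The targeted gene, Hnrnpl, was at 459.6 and 603 CPM (reads per 1e6 reads, with library sizes scaled by the TMM method) in WT and 279.6 and 269 CPM in KO, 0.516 of WT (edgeR adjusted p = 0.0114). Its transcript was lower in both KO libraries and still present in them. Reads on the transcripts used numbered 33738843 to 56895360 per library. KO replicate 2 had 2839 reads on the Y-linked gene Ddx3y against 5 to 14 in the other libraries. On Xist, a gene expressed in females, it had 336 reads against 31498 to 51618. Its RNA was thus mostly male and that of the others female, whether from 1 animal or several. In WT replicate 2 a list of 11 heart muscle genes summed to 318 CPM, against 70.4 in WT replicate 1 and 13.7 to 14.8 in KO.

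Mitotic genes were lower in the KO livers. Of the 48, 37 were lower and 0 were higher by the quasi-likelihood test of edgeR at an adjusted p under 0.05, while 9.44% of all 15028 genes tested were lower and 11.4% higher. The median log2 fold change was -0.61, or 0.655 of WT, against 0.02 over all genes tested. Among the 7526 genes tested that were at least as abundant as the scarcest of the 48, 15.8% were lower. That cut is only a lower bound, and a share at the levels of the 48 themselves was not computed. Without scaling of the libraries, 30 of the 48 were lower, and the calls over all genes went from 1419 lower and 1711 higher to 952 lower and 2380 higher. At an unadjusted p under 0.05, 41 of the 48 passed, all of them lower, and none was higher by DESeq2 or limma voom. Both KO libraries lay below both WT libraries in 44 of the 48, against 31.7% of all genes, and the other 4 overlapped. All 48 passed the filter on low counts. The fall ranged from Kif23, at 0.491 of WT, to Cdc20, at 1.02 of WT. Since RNA was taken from liver cells in bulk, fewer dividing cells and less of these transcripts per cell cannot be told apart.

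The count of lower genes depended on each library. Leaving out WT replicate 1 gave 25 lower genes, beside 4.01% of all genes, and leaving out WT replicate 2 gave 19, beside 3.01%. Leaving out KO replicate 1 gave 33, beside 7.68%, and leaving out KO replicate 2, which leaves females alone, gave 15, beside 2.19%. The lone library of a group was then assumed to vary like those of the other group. The median log2 fold change lay between -0.63 and -0.54 in these 4 fits. Calls of 14 genes held in all 4 of them: Ccnb2, Cdk1, Cdca8, Mad2l1, Cenpf, Ndc80, Nuf2, Kif15, Kif23, Kif4, Nusap1, Prc1, Racgap1 and Smc2. Bub1, Ttk and Kif2c held in 0 of them.

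**Figure D1:**
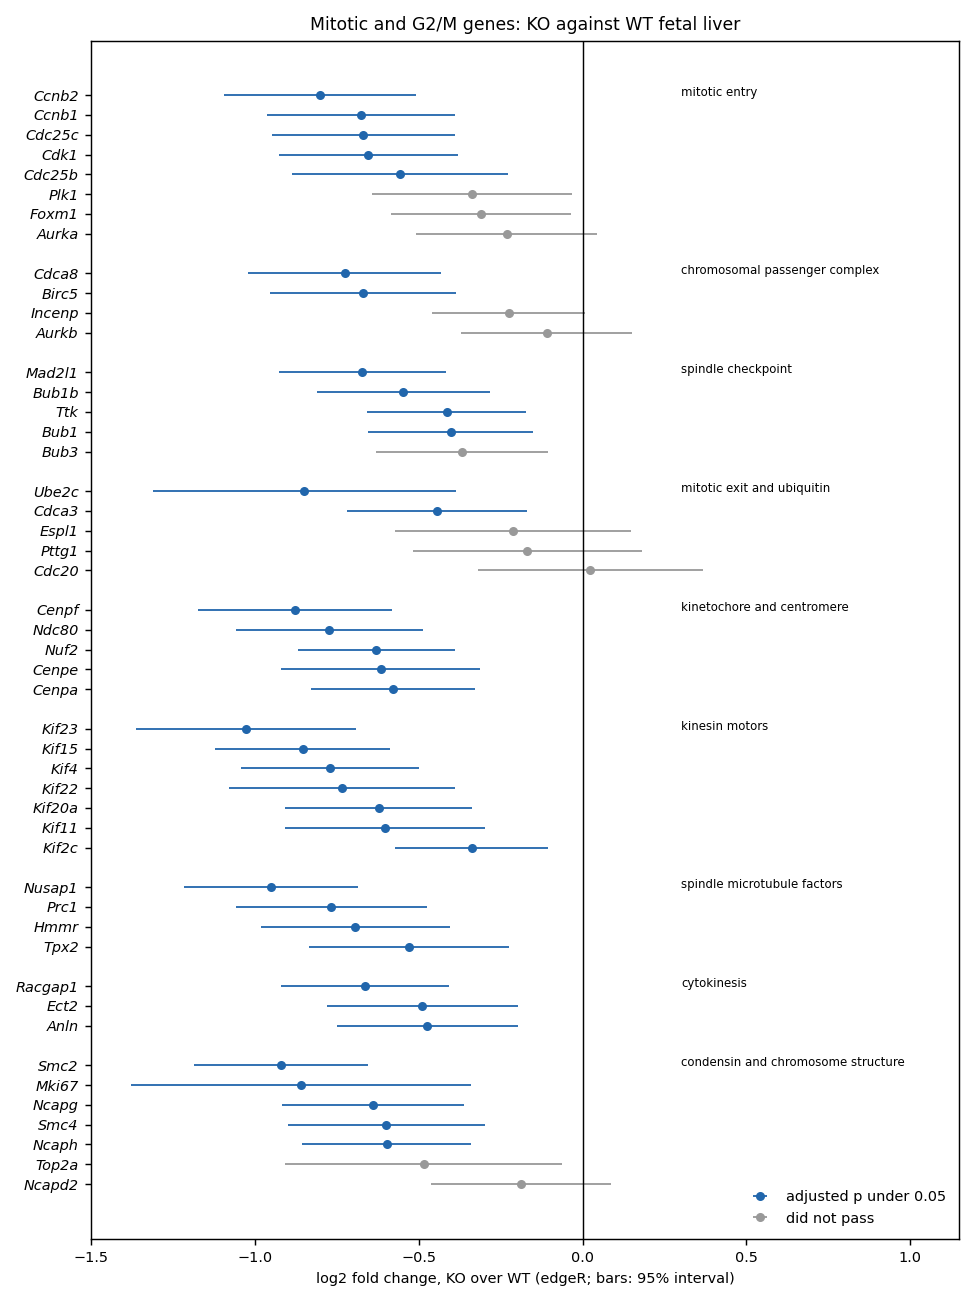
Log2 fold change (x axis, KO over WT, edgeR) of each of the 48 genes (y axis), grouped by role, with 95% intervals as bars; blue points passed an adjusted p under 0.05 and grey points did not. All points but that of Cdc20 lie left of 0, and the kinesins, the spindle microtubule factors, the kinetochore genes and the cytokinesis genes are all blue.

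**Figure D2:**
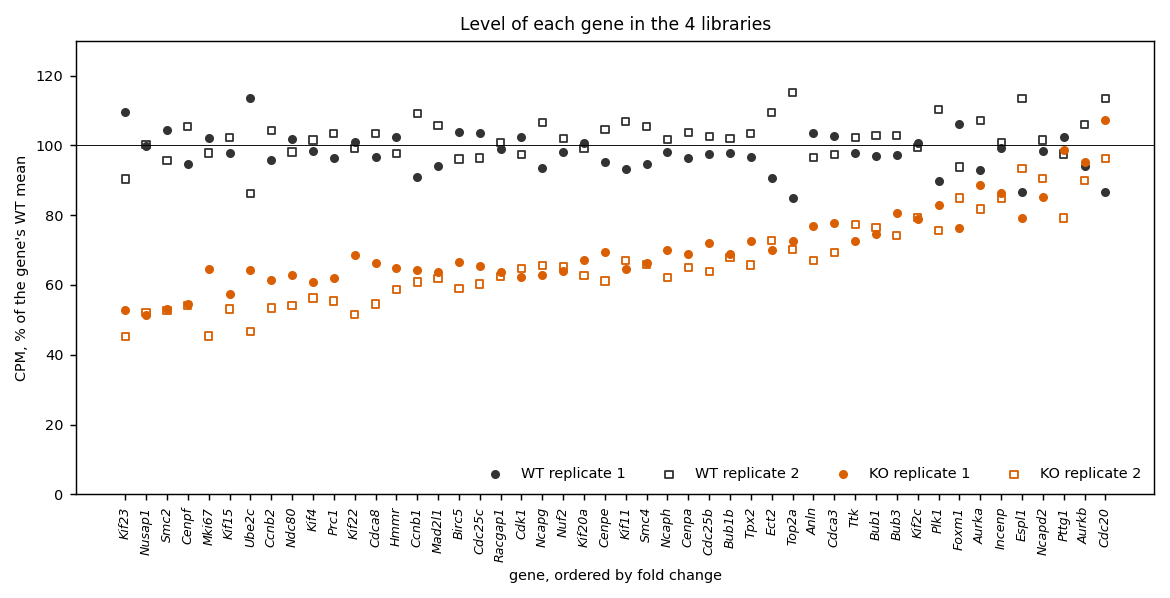
Level of each of the 48 genes in the 4 libraries, as CPM in percent of the gene's WT mean (y axis), with genes ordered by fold change (x axis); black marks are WT, orange marks KO, filled circles replicate 1 and open squares replicate 2. For 44 genes both orange marks lie below both black marks.

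Promoters of late cell cycle genes often hold the cell cycle genes homology region, TTTGAA, which is bound by complexes of the MuvB core, and near it CCAAT boxes, which are bound by NF-Y. Promoter windows from RefSeq (build GRCm38.p6), each reaching from 250 bases before to 50 bases after the gene start, were found for 41 of the 48 genes. None was listed for Aurkb, Cdc25c, Foxm1, Incenp, Kif20a, Smc4 and Tpx2. Of the 41, 31 (75.6%) held TTTGAA on either strand, compared with 20.2% of all 27025 genes with a window, with 30 of 77 (39.0%) related mitotic genes and with 2 of 22 S phase genes. Counted over windows, since a gene can have several, TTTGAA was in 77.3% of the 44 windows of these genes and in 17.9% of all 32851. It began within 50 bases of the start in 68.2% of the 44 windows (28 of the 41 genes), in 23.6% of those of related mitotic genes and in 4.94% of all windows. CCAAT, searched on both strands, was in 31 of the 41 genes (75.6%), in 41.1% of all genes, in 43 of 77 (55.8%) related mitotic genes and in 14 of 22 S phase genes. The 2 motifs were counted apart, and a window can hold both. A match is a run of letters and not a shown binding site.

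Windows of 4 genes that fell and of Cdc20, which did not pass, are shown because the same motif stands near the start in all 5, 5′ to 3′ on the gene's strand, with matches to either motif on either strand in capitals.
Kif23 (chr9:61946750-61947049, minus strand): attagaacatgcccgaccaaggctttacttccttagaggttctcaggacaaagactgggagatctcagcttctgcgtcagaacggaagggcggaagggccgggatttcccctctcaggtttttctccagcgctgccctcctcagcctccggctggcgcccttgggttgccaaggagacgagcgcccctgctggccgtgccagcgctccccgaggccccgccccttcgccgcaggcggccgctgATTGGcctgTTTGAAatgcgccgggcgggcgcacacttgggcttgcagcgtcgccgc
Cenpf (chr1:189688037-189688336, minus strand): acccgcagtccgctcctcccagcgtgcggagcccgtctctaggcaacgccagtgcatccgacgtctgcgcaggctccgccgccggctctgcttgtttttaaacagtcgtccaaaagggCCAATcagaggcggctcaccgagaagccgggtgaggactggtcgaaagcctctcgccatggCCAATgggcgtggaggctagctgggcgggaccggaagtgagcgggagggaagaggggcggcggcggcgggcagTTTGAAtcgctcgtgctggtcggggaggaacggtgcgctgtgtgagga
Ccnb2 (chr9:70421505-70421804, minus strand): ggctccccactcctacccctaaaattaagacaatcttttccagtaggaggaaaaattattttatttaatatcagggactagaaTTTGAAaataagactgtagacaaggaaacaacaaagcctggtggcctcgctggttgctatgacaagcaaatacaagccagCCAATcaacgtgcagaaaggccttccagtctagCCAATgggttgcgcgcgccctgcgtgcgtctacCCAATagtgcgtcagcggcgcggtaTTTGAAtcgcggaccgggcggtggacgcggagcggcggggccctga
Cdk1 (chr10:69352863-69353162, minus strand): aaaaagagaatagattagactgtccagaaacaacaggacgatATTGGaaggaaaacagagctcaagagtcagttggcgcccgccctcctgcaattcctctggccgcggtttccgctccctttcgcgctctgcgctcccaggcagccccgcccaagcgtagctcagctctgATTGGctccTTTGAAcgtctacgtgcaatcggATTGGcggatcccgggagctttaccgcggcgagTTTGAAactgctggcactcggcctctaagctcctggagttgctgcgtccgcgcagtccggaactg
Cdc20 (chr4:118437294-118437593, minus strand): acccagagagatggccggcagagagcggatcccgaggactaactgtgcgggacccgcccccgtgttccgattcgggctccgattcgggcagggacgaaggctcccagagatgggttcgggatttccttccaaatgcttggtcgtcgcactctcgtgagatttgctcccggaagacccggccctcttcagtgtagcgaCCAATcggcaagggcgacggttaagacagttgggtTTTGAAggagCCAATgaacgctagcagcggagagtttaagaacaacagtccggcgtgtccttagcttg
In Kif23 and Cenpf the motif began 3 bases into the transcript and in Ccnb2 5 bases into it, with a further match 167 bases before the start. In Cdk1 it began 71 and 15 bases before the start and in Cdc20 18 bases before it. Genes with and without a call both held it: TTTGAA was in 24 of 33 genes that were lower and in 7 of 8 that did not pass, among them Cdc20, Plk1, Aurka and Espl1. Neither motif was in the windows of Birc5, Mad2l1, Ncaph, Nuf2 and Nusap1, which were lower, or of Pttg1.

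**Figure D3:**
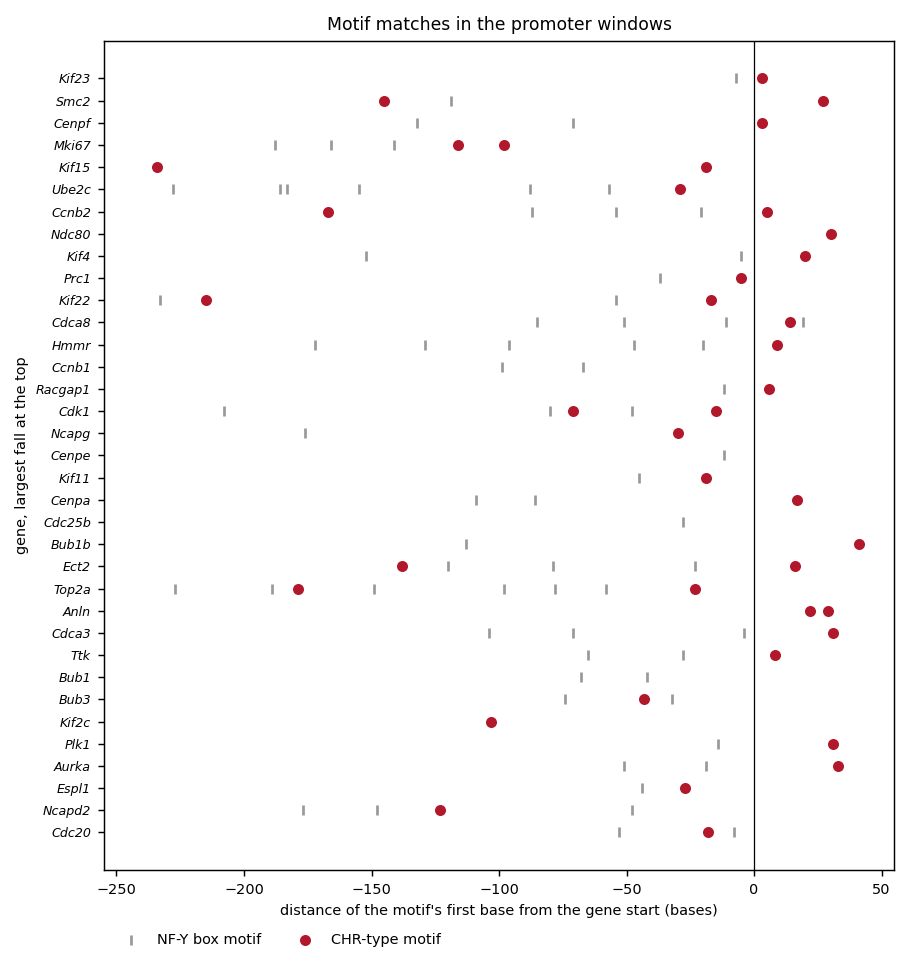
Position of motif matches (x axis, bases from the gene start) in the promoter windows of the 35 genes with a match, ordered by fold change with the largest fall at the top (y axis); red circles are TTTGAA and grey bars CCAAT, on either strand, in 1 window a gene. Most red circles lie within 50 bases of the start, in genes at the top and at the bottom.

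Of 8 genes that start mitosis, 5 were lower. Ccnb2, a B-type cyclin (chromosome 9, 70255496 to 70269361 in the coordinates of the deposited files, whose build is not stated), was at 244 and 265 CPM in WT and 156 and 136 CPM in KO, a log2 fold change of -0.80 with SE 0.13 (edgeR adjusted p = 0.00998). Cdk1, the kinase that cyclin B switches on (chromosome 10, 68799383 to 68815660), was at 316 and 301 CPM in WT and 192 and 199.9 CPM in KO, 0.636 of WT (edgeR adjusted p = 0.0132). In both genes the KO libraries lay close together and well below WT. Ccnb1 and the phosphatases Cdc25b and Cdc25c, which remove the inhibitory phosphates of Cdk1, were at 0.625, 0.679 and 0.628 of WT.

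The 3 others of this group did not pass, although their KO libraries all lay below WT. Foxm1, a transcription factor of G2 genes, was at 128 and 113 CPM in WT and 91.6 and 102 CPM in KO (edgeR adjusted p = 0.0988). Plk1, a kinase that promotes entry and spindle assembly, was at 103 and 127 CPM in WT and 95.1 and 86.8 in KO (edgeR adjusted p = 0.104). Aurka, the kinase of spindle poles, was at 128 and 148 CPM in WT and 122 and 113 in KO (edgeR adjusted p = 0.197). The 95% intervals of their ratios were 0.666 to 0.975, 0.641 to 0.977 and 0.703 to 1.03 of WT. The interval of Cdk1, 0.526 to 0.767, overlapped all of them, and a difference from Cdk1 was not tested. Leaving out either WT library left 3 lower genes in the group, and leaving out KO replicate 2 left 2, Ccnb2 and Cdk1.

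Kinesins fell as a whole group, with 7 of 7 lower. Kif15, which helps keep the spindle bipolar, was at 246 and 257 CPM in WT and 144 and 134 CPM in KO, 0.553 of WT (edgeR adjusted p = 0.00752). Kif23, the motor of the centralspindlin complex at the division site (chromosome 9, 61765085 to 61794606), had 52.1 and 42.9 CPM in WT and 25.1 and 21.5 CPM in KO and the lowest ratio of the 48, 0.491 of WT (95% interval 0.389 to 0.620, edgeR adjusted p = 0.0081). The chromosome-bound motors Kif4 and Kif22 were at 0.586 and 0.601 of WT, Kif11, which pushes the spindle poles apart, at 0.658, and Kif20a at 0.649. Kif2c, which takes microtubules apart at the centromere, had the smallest fall of the group, from 92.6 and 91.5 to 72.6 and 73.0 CPM, and lay at the threshold (edgeR adjusted p = 0.04997), with an adjusted p of 0.0356 to 0.179 in the alternatives. Leaving out 1 library left 3 to 6 kinesins lower. The count of 3, Kif15, Kif23 and Kif4, came from leaving out KO replicate 2, and that of 4 from leaving out WT replicate 2.

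All 4 spindle microtubule factors were lower. Nusap1, which bundles spindle microtubules (chromosome 2, 119444034 to 119475896), hardly differed within a group, with 313 and 314 CPM in WT and 161 and 163 CPM in KO (log2 fold change -0.95, SE 0.11, edgeR adjusted p = 0.00673). It overlaps Oip5 on the other strand, and strand-specific counting is not stated, but reads across its own junctions gave a log2 fold change of -0.93. Prc1, which links antiparallel microtubules in anaphase, was at 321 and 344 CPM in WT and 206 and 184 CPM in KO, 0.588 of WT (edgeR adjusted p = 0.011). Hmmr was at 0.618 and Tpx2, the activator of Aurora A, at 0.692 of WT. The call of Hmmr was lost when KO replicate 2 was left out (adjusted p = 0.0518), and that of Tpx2 when any library but KO replicate 1 was (adjusted p up to 0.139).

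Kinetochore and centromere genes were lower in 5 of 5 cases. Cenpf, a large protein of the outer kinetochore, was at 412 and 459 CPM in WT and 238 and 236 CPM in KO, 0.544 of WT (edgeR adjusted p = 0.00848). Ndc80, which binds microtubule ends, was at 51.2 and 49.3 CPM in WT and 31.6 and 27.1 in KO, 0.585 of WT (edgeR adjusted p = 0.0102), and its partner Nuf2 was at 0.646. In Cenpf and Ndc80 the groups were far apart next to the spread within each. Cenpa, the histone H3 variant of centromeres, and Cenpe, a kinetochore motor, were at 0.669 and 0.652 of WT, and both lost their call when either replicate 2 was left out (adjusted p up to 0.0629 and 0.0923).

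Of 5 spindle checkpoint genes 4 were lower, with a group median of -0.42 on the log2 scale. Mad2l1, which holds back Cdc20, was at 104 and 117 CPM in WT and 70.4 and 68.4 CPM in KO, 0.627 of WT (edgeR adjusted p = 0.0108). Bub1b, the BubR1 kinase of the same inhibitory complex, was at 259 and 269.5 CPM in WT and 182 and 179 in KO, 0.684 of WT (edgeR adjusted p = 0.0186). The kinases Ttk and Bub1 were at 0.750 and 0.756 of WT. Bub3, which docks the Bub kinases, was at 176 and 187 CPM in WT and 147 and 135 CPM in KO, all KO values below WT, and did not pass (edgeR adjusted p = 0.0548). It did pass with the shared file number as a replicate block (edgeR adjusted p = 0.0352), with DESeq2 (adjusted p = 0.0284), with limma voom (adjusted p = 0.04996) and with no filter on low counts (edgeR adjusted p = 0.0458), while its adjusted p was 0.0511 to 0.217 in the other alternatives. Mad2l1 alone of the 5 was lower in each of the fits that left out WT replicate 1, WT replicate 2 and KO replicate 2, and it and Bub1b were in the fit that left out KO replicate 1.

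Condensin and chromosome structure genes were lower in 5 of 7 cases. Smc2, an ATPase subunit shared by both condensins, was at 249 and 229 CPM in WT and 127 and 126 CPM in KO, 0.528 of WT (edgeR adjusted p = 0.00673). Ncaph, the subunit that closes the ring of condensin I, was at 129.7 and 134 CPM in WT and 92.3 and 82.2 in KO, 0.661 of WT (edgeR adjusted p = 0.0146), and Ncapg and Smc4 were at 0.642 and 0.660. Ncapd2, of the same complex, was not called: it had 279 and 287 CPM in WT and 241 and 256 CPM in KO, with an interval of 0.726 to 1.06 of WT (edgeR adjusted p = 0.285). Subunits of condensin I thus differed in their values, but a difference between them was not tested.

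Mki67 and Top2a, used as marks of dividing cells, had the most reads of the 48 and differed between replicates. Mki67, the Ki-67 protein that coats mitotic chromosomes, had 6269 and 6004 CPM in WT and 3971 and 2786 CPM in KO and was at 0.551 of WT (edgeR adjusted p = 0.0346). KO replicate 2 lay far below KO replicate 1, and leaving out either KO replicate 2 or a WT library ended the call (adjusted p up to 0.0955). Top2a, topoisomerase II alpha, had 889 and 1205 CPM in WT and 762 and 735 CPM in KO and did not pass (edgeR adjusted p = 0.0959). It passed as lower with DESeq2 (adjusted p = 0.0167) and with no filter on low counts (edgeR adjusted p = 0.0490), and its adjusted p was 0.0567 to 0.484 in the other alternatives. Here the WT libraries were the uneven ones, with WT replicate 2 well above WT replicate 1. Leaving out WT replicate 2 left Smc2 as the 1 lower gene of the 7, and leaving out KO replicate 2 left Smc2 and Ncapg.

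Among genes of the chromosomal passenger complex, which corrects faulty attachments, 2 of 4 were lower. Cdca8, the Borealin subunit, was at 85.1 and 91.1 CPM in WT and 58.4 and 48.1 CPM in KO, 0.604 of WT (edgeR adjusted p = 0.0124). Birc5, the Survivin subunit, was at 251 and 232 CPM in WT and 161 and 142 in KO, 0.628 of WT (edgeR adjusted p = 0.0139), a call that ended when KO replicate 2 was left out (adjusted p = 0.0583). Both are small subunits that bring the kinase to the centromere. The scaffold Incenp was at 105 and 107 CPM in WT and 91.3 and 89.6 in KO, and the kinase Aurkb at 100.4 and 113 CPM in WT and 102 and 96.2 in KO, where the groups overlapped. Neither passed (edgeR adjusted p = 0.146 for Incenp and 0.512 for Aurkb). The interval of the Aurkb ratio was 0.773 to 1.11 of WT, and a difference between the subunits was not tested.

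Of 5 genes grouped under mitotic exit and ubiquitin, not all of which act in exit, 2 were lower, with a group median of -0.21 on the log2 scale. Ube2c, the enzyme that passes ubiquitin to targets of the anaphase-promoting complex, was at 495 and 376 CPM in WT and 280.1 and 203 CPM in KO, 0.555 of WT (edgeR adjusted p = 0.026). Cdca3 was at 216 and 205 CPM in WT and 164 and 146 in KO, 0.735 of WT (edgeR adjusted p = 0.0371). Both lay below WT in both KO libraries, and 0 of the 5 passed when WT replicate 1 or KO replicate 2 was left out (adjusted p up to 0.0965 for Ube2c and 0.15 for Cdca3), while Ube2c passed when WT replicate 2 was.

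In the 3 others of this group the WT and KO libraries overlapped. Cdc20, the activator of the anaphase-promoting complex, was at 104 and 137 CPM in WT and 129 and 116 CPM in KO (ratio 1.02, 95% interval 0.801 to 1.29, edgeR adjusted p = 0.924). Cdc20 overlaps Elovl1 on the other strand, but its own junctions gave 285 and 289.5 in WT and 292 and 289 in KO, per 1e6 known junction reads on scaled library sizes. Espl1, the separase that cuts cohesin, was at 115 and 151 CPM in WT and 105 and 124 in KO (edgeR adjusted p = 0.357). Pttg1, its inhibitor securin, was the least abundant of the 48 in reads, at 21.5 and 20.4 CPM in WT and 20.7 and 16.6 in KO (edgeR adjusted p = 0.449). The intervals of the last 2 ratios, 0.672 to 1.11 and 0.698 to 1.13 of WT, include no change.

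Cytokinesis genes were lower in 3 of 3 cases, while the 3 related ones given below did not pass. Racgap1, the partner of Kif23 in centralspindlin, was at 241 and 245 CPM in WT and 155 and 152 CPM in KO, 0.631 of WT (edgeR adjusted p = 0.0111). Anln, anillin of the contractile ring, was at 174 and 163 CPM in WT and 129.5 and 113 in KO, 0.719 of WT (edgeR adjusted p = 0.0314), and Ect2, which activates the small GTPase RhoA at the division site, at 0.712. Racgap1 kept its call whichever library was left out, while those of Anln and Ect2 were each lost in 3 of the 4 fits (adjusted p up to 0.135 and 0.171).

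Levels per length differed widely among the 48. On the deposited RPKM scale (reads scaled by transcript length and by mapped reads), Mki67 had the highest WT mean, 292, and 170.4 in KO. Ube2c came next with 223 and 132, and Kif23 was the lowest with 6.63 and 3.47. Neither level nor length went along closely with the fall: across the 48 genes, which are not independent and share the 4 libraries, log2 fold change had r = -0.23 with mean log2 CPM and r = -0.20 with log2 transcript length. Mki67 made up 36.9% and 34.5% of the summed CPM of the 48 in WT and 34.3% and 28.0% in KO. That sum was 17001 and 17395 CPM in WT and 11565 and 9947 in KO, and 10733 and 11391 CPM in WT and 7594 and 7161 in KO with Mki67 left out. The sums of the 2 groups lay well apart in either case.

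Splice junctions gave a second measure of the same RNA. The 48 genes have 789 known junctions, 788 of them with reads, and 337664 junction reads over the 4 libraries. On junction reads summed per gene, 27 of the 48 were lower and 0 higher by edgeR, against 4.4% of 11247 genes lower, with a median log2 fold change of -0.57. At an unadjusted p under 0.05, 36 of the 48 passed on this measure. Calls lost on it included those of Mad2l1, Cdc25c and Cdca3 (edgeR adjusted p = 0.124, 0.205 and 0.245). Aurkb, called on neither measure, had a log2 fold change of 0.08 here and -0.11 on transcript reads. Fold changes from junction reads and from transcript reads differed by a median of 0.06 on the log2 scale and by at most 0.29, for Cdc25c. The 2 measures come from the same libraries and share reads, so their likeness is no independent support. Kif20a overlaps Cdc23, Foxm1 overlaps 4933413G19Rik, and Ncapd2 and Smc4 hold small RNA genes, so their transcript reads may include reads of these genes. Their junction reads gave log2 fold changes of -0.65, -0.36, -0.12 and -0.63, in that order.

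**Figure D4:**
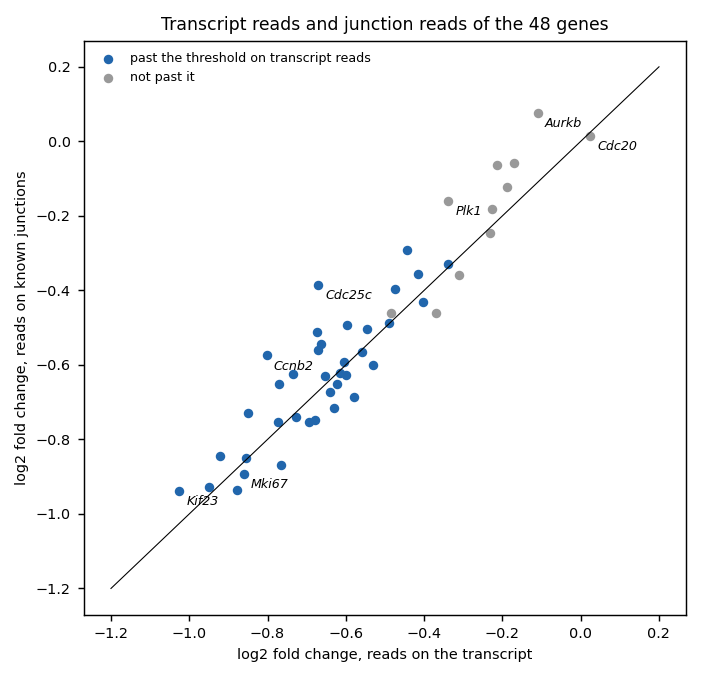
Log2 fold change (KO over WT) of the 48 genes from reads on the transcript (x axis) and from reads on known junctions summed per gene (y axis), with the line of equality; blue genes passed on transcript reads and grey ones did not. The points follow the line from Kif23 at the lower left to Cdc20 at the upper right, and Cdc25c lies 0.29 above it.

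Use of single junctions within the 48 genes was not found to change, by a test that made 2 calls among all 103333 junctions. A lack of calls here therefore does not show that use was unchanged. Of 777 junctions with at least 10 reads, 0 passed diffSpliceDGE of edgeR, in 0 of 48 genes, while 0.00194% of all junctions and 0.0187% of all genes tested had a call. At an unadjusted p under 0.05 there were 9 junctions (1.16%), against 2.38% of all junctions. The smallest p belonged to a junction of Kif15 (chromosome 9, 122900345 to 122900979) with 22 and 23 reads in WT and 2 and 3 in KO (unadjusted p = 0.00343, adjusted p over 0.99). It took 2.47% and 1.31% of the Kif15 junction reads in WT and 0.247% and 0.384% in KO. Junctions of the 48 genes had a median of 203 reads over the 4 libraries. Isoforms of the 9 genes with several transcripts were not tested apart.

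Other genes of the same machinery, a list of 102 further genes, gave 58 lower genes and 1 higher, with a median log2 fold change of -0.45. The lower genes made up 56.9% of this list, against 9.44% of all 15028 genes tested, of which 11.4% were higher. Cenpl, of the inner kinetochore, was at 83.2 and 82.6 CPM in WT and 47.2 and 41.4 in KO, 0.534 of WT (edgeR adjusted p = 0.00673). By role, 21 of 29 kinetochore genes, 8 of 12 cohesin genes, 13 of 23 spindle and centrosome genes, 9 of 17 entry genes, 3 of 3 condensin II genes and 4 of 15 genes of the anaphase-promoting complex were lower. The 3 further cytokinesis genes, Cep55, Cit and Iqgap3, did not pass, with 0 of 3 at an adjusted p under 0.05. Their median log2 fold change was 0.03, and a difference from the 3 cytokinesis genes among the 48 was not tested. Cep55 was at 0.999 and Cit at 1.02 of WT, and the groups overlapped in each. Iqgap3 was at 1.22 of WT, with both KO libraries above both WT libraries (edgeR adjusted p = 0.0910). Fewer related genes were lower when any library was left out, and the share of all genes called lower was smaller in those fits too.

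Gtse1 went the other way. This microtubule-binding protein of G2 and M, known also to bind p53, was at 51.9 and 50.7 CPM in WT and 80.4 and 80.8 CPM in KO, 1.57 times WT (edgeR adjusted p = 0.00993). Both KO libraries lay above both WT libraries, and the call held whichever library was left out (adjusted p up to 0.0419).

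Genes of S phase and of red cell precursors were lower beside the mitotic genes, and genes of other liver cells higher. Of 28 S phase genes, 20 were lower (median -0.55). Of 21 erythroid marker genes, 14 were lower and 0 higher (median -0.74), with summed levels of 72913 and 64454 CPM in WT and 42535 and 31683 in KO. Higher genes numbered 6 of 15 hepatocyte, 8 of 10 megakaryocyte, 6 of 11 granulocyte and 5 of 8 endothelial markers, with none called lower. Of the 11 granulocyte markers, 2 had a log2 fold change below 0, down to -0.496. Over all genes tested, 11.4% were higher and 9.44% lower. Of 9 macrophage markers tested, 2 were lower and 3 higher. Hepatocyte markers summed to 58628 and 42556 CPM in WT and 89419 and 73615 in KO, megakaryocyte markers to 848 and 969 CPM in WT and 1606 and 1375 in KO, granulocyte markers to 813 and 681 CPM in WT and 1381 and 1048 in KO, endothelial markers to 515 and 568 CPM in WT and 833 and 889 in KO and macrophage markers to 395 and 292 CPM in WT and 295 and 229 in KO. These counts rested on single libraries too. Leaving out KO replicate 1 gave more lower erythroid genes and fewer lower S phase genes than all 4 libraries did. Leaving out any other library gave fewer of both. The share of all genes called lower was also smaller in each of these fits. Lower erythroid genes numbered 5 when either WT library was left out and 3 when KO replicate 2 was, and lower S phase genes 8 when WT replicate 2 was left out and 7 when KO replicate 2 was. Higher hepatocyte genes were fewest when WT replicate 2 was left out. They numbered 11 with no scaling, 12 with no filter and 15 with the replicate block. Over all genes, 2380 of 15028, 2494 of 19837 and 2342 of 15028 were higher in these last fits. The fit used above had 1711 of 15028 higher. Higher megakaryocyte genes numbered 5 when either replicate 1 was left out, and higher endothelial genes 3 when WT replicate 1 or KO replicate 2 was. No marker of these 6 cell types was at 0 in any library. Of the cardiac list, the 10 tested were lower in 9 cases, and Nppa was at 0 in a library. The part that the makeup of the tissue has in the fall of the mitotic genes was not tested.

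The level of the mitotic genes beside the red cell genes depended on the measure. The median log2 CPM of the 48 minus that of the 17 erythroid markers other than globins was -2.21 and -2.19 in WT and -2.08 and -1.77 in KO. Here both KO values lay above both WT values. The ratio of the summed CPM of the 48 to that of these markers, a measure added after seeing the data, was 0.550 and 0.562 in WT and 0.550 and 0.608 in KO, where the groups overlapped. They overlapped without Mki67 as well, at 0.347 and 0.368 in WT and 0.361 and 0.437 in KO. The difference of the median log2 CPM from the S phase genes was 0.52 and 0.34 in WT and 0.27 and 0.46 in KO, where the groups overlapped. These differences describe the 4 libraries and depend on the lists chosen.

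**Figure D5:**
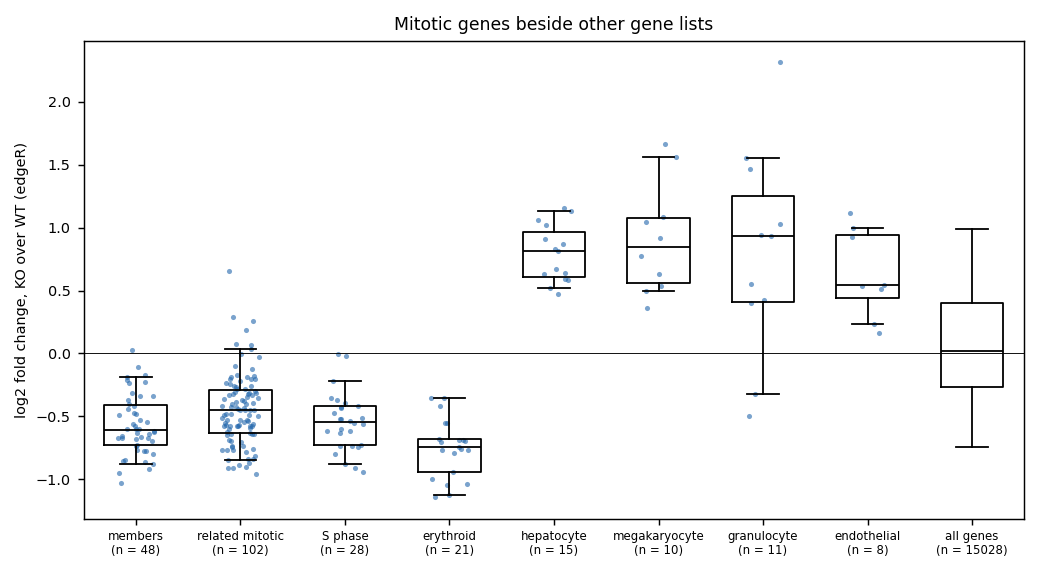
Log2 fold change (y axis, KO over WT, edgeR) of the 48 genes, of related mitotic, S phase and cell type marker lists, and of all genes tested (x axis); boxes show the median and quartiles, whiskers the 5th and 95th percentiles, and points single genes. The medians of the first 4 lists lie between -0.75 and -0.45, and those of the hepatocyte, megakaryocyte, granulocyte and endothelial lists above 0.5.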

How the data were processed

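RNA of 4 fetal liver samples was depleted of ribosomal RNA, cut with RNase III and sequenced on 2 slides, per the labels' protocols; the labels do not say which libraries ran together, so slide and genotype cannot be told apart. The authors deposited raw read counts per RefSeq transcript (primary alignments, mapping quality of at least 10), RPKM values and reads per nucleotide, a coverage signal, per the file headers, and raw counts per splice junction. RPKM recomputed from the counts matched in 100% of rows. No label or header used here names the aligner or build.

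For each of 22011 genes, the transcript with most reads was kept, from 28283 in the tables. Counts were tested with edgeR 4.0.16 (R 4.3.3; TMM scaling, filterByExpr, quasi-likelihood test, Benjamini-Hochberg over 15028 genes, threshold 0.05), with all 4 libraries and no covariate. Junction use was tested with diffSpliceDGE on known junctions with at least 10 reads. The scripts were tested on simulated data, with changed genes drawn from all levels. There 19 of 49 genes set to 0.6 of WT were called, and 38 of 49 set to 0.33. A gene that did not pass may thus still have fallen. Alternatives were other scalings, DESeq2 1.42.0, limma 3.58.1 (voom), no filter, summed transcripts, a replicate block and leaving out each library. The members and lists were chosen with earlier results of these data known. Full values are given for the 2 members with the smallest p in each of 9 role groups, each member that did not pass, the 2 related genes with the smallest p (of which 1 is not reported here) and each related gene that was higher; other members named were chosen after their values were seen.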

Additional observations from a re-analysis of the deposited data

How the results depend on the processing

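The count of lower mitotic genes was 37, 36, 30, 39, 37, 38 and 36 with DESeq2 size factors, upper quartile scaling, no scaling, DESeq2, limma voom, no filter and summed transcripts, and 27 on junction reads; it ranged from 15 to 33 when 1 library was left out, with 0 higher throughout. The median log2 fold change moved from -0.61 to -0.58 with upper quartile scaling, -0.52 without scaling, where the median of all genes was 0.11, and -0.57 on junction reads, and ranged from -0.63 to -0.54 with 1 library left out. Related mitotic genes that were lower numbered 43 to 66 in these settings with all libraries and 22 to 46 with 1 left out. Changed junctions stayed at 0 with at least 40 reads and without any 1 library. Leaving out 1 library put the log2 fold change of Cdc20 between -0.16 and 0.23; the sign turned, to -0.16 and -0.06, when the first library of WT or of KO was left out, far from the threshold in both, and the cause was not tested. WT and KO files share a number in their names, and the deviations of same-numbered libraries correlated at r = 0.17 across genes; nothing in the labels says what it marks. With it as a replicate block, 38 of the 48 were lower, 37 of them the same genes, and 66 related genes were; the added call was Bub3 (adjusted p = 0.0352).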
